A study of Mus musculus with 6 samples.

Results

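The subject here is the set of genes for the oxidative phosphorylation machinery of mouse embryonic stem (ES) cells. Members were chosen by symbol among the protein-coding genes of GENCODE M21: the Nduf genes of complex I, Sdha to Sdhd, the Uqcr genes and Cyc1, Cox4 to Cox8, the Atp5 genes, and the protein genes of the mitochondrial genome. Among the 55487 genes counted, 108 fitted, 95 in the nucleus and 13 in mitochondrial DNA. The symbol patterns matched another 13 genes, 12 processed pseudogenes and a non-coding RNA, which were left out. Of the 108 members 99 encode subunits. The remaining 9 are assembly or accessory factors that share the Nduf or Atp5 names (Ndufaf1 to Ndufaf8 and Atp5s). Ndufa4 and Ndufa4l2 were grouped with complex IV, where the NDUFA4 protein resides.

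Oxidative phosphorylation passes electrons from NADH through complex I, or from succinate through complex II, to coenzyme Q, then through complex III and cytochrome c to oxygen at complex IV. Complexes I, III and IV pump protons across the inner mitochondrial membrane, and complex V, the ATP synthase, uses the gradient to make ATP. Complex II is encoded wholly in the nucleus, whereas the other complexes combine nuclear subunits with a few made inside the mitochondrion from its own genome. Naive ES cells use both glycolysis and respiration, and a move to the primed state is known to lower respiration.

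The cells were of the D6AdP line. Both Ddx6 alleles are DDX6-AID-mCherry, a fusion to an auxin-inducible degron, 1 Dcp1a allele is DCP1a-EGFP, and an OsTIR1-FLAG transgene supplies the F-box protein that sends degron-tagged DDX6 to the proteasome once an auxin is present. All groups carry these alleles, grew on mitomycin-C-treated fibroblast feeders, and were kept in LIF, PD0325901 and CHIR99021. The auxin analog 5-Ph-IAA was given at 500 nM for 0, 3 or 6 h, with 2 polyA libraries per time and 6 in all. DDX6 is an RNA helicase of P-bodies that acts in translational repression and mRNA decay. No time-matched untreated wells and no analog-treated cells without the degron were among the libraries used, so effects of the analog, of time in culture and of DDX6 loss cannot be told apart.

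Totals ran from 16357142 to 21846959 counts per library, and 3 counts stood for 0.137 to 0.183 CPM, the count scaled to a common library size. All 12 ES cell markers were detected in every library, with summed levels of 5941 and 6104 CPM at 0 h, 6078 and 6041 CPM at 3 h, and 5486 and 5641 CPM at 6 h. All 26 fibroblast markers were also detected, with summed levels of 24566 and 22532 CPM at 0 h, 21831 and 21410 CPM at 3 h, and 24320 and 21903 CPM at 6 h, so the libraries hold feeder RNA, which expresses the same respiratory genes. Because these are bulk samples, fewer cells of a type and less RNA per cell cannot be told apart. Ddx6 mRNA, which the degron does not target, was at 267 and 250 CPM at 0 h and at 258 and 247 CPM at 6 h. The members together held 3.54% to 3.72% of the counts, and the 13 mitochondrial genes with the other genes of that genome held 2.94% to 3.10%.

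The first thing the counts show is that 5 mitochondrial genes can hardly be read from this table, because a stretch of mitochondrial DNA on chromosome 1 repeats them. Of the 50-base windows of mt-Co2, mt-Atp6, mt-Co3, mt-Nd4l and mt-Nd3, 98.0% to 99.9% occur exactly in an annotated pseudogene there. The copies lie between positions 24611535 and 24616197 of chromosome 1 (GRCm38, minus strand). The copy of mt-Co1 marks an edge of the insertion, and a 90-base stretch over that edge is shown to make the likeness visible. Capitals mark the bases that differ between chrM:6381-6470 (plus strand) and chr1:24616108-24616197 (minus strand), in GENCODE M21 transcripts. The start of mt-Atp6 (chrM:7927-8016, plus strand) is shown as well, and its copy Gm10925 (chr1:24614562-24614651, minus strand) reads the same at all 90 bases.
mt-Co1: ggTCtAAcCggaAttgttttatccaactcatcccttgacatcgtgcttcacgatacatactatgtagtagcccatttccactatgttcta
Gm29216: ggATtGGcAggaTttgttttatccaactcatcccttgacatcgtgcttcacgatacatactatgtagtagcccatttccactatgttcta
mt-Atp6: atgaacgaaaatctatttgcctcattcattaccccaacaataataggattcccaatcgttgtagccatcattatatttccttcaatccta

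Over the aligned lengths, Gm29216 differs from mt-Co1 at 6 of 492 bases, all of them near the edge printed here. Gm28661 matches mt-Co2 over 681 bases, Gm10925 matches mt-Atp6 over 678, Gm28437 matches mt-Co3 over 783 and Gm10222 matches mt-Nd4l over 294, with 0 differences each. Gm28438 differs from mt-Nd3 at 1 of 345 bases. The copy of mt-Nd4, Gm28439, covers 876 of its 1378 bases with 0 differences.

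For these 5 genes the copies held more counts than the mitochondrial genes did. Over the 6 libraries mt-Co2 was given 749 counts and its copy 33492, mt-Atp6 341 and its copy 44740, and mt-Co3 208 and its copy 25829. For mt-Nd3 there were 42 counts against 3205, and for mt-Nd4l 22 against 3422. In contrast mt-Co1, which shares 28.7% of its windows with its copy there and 51.1% with any annotated gene elsewhere, kept 1298656 counts with 41729 at its copy, and mt-Nd4, which shares 62.2%, kept 195108 with 17713 at its copy. mt-Atp8 shares no window with an annotated gene elsewhere and held 2 to 5 counts per library. It follows mt-Co2 and overlaps the start of mt-Atp6, and both of these have copies in the insertion. Only annotated genes were searched, so an unannotated copy of mt-Atp8 between those copies would be missed. How reads with several matches were handled is not given in the sources used here. Reads dropped for several matches would be missing at both places, so sums with the copies need not recover the levels. Levels of mt-Atp8 and of the 5 genes with copies are therefore not read as expression. The remaining genes mt-Nd1, mt-Nd2, mt-Nd4, mt-Nd5, mt-Nd6, mt-Cytb and mt-Co1 held from 4788 to 239851 counts per library and carry the mitochondrial results.

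**Figure D1:**
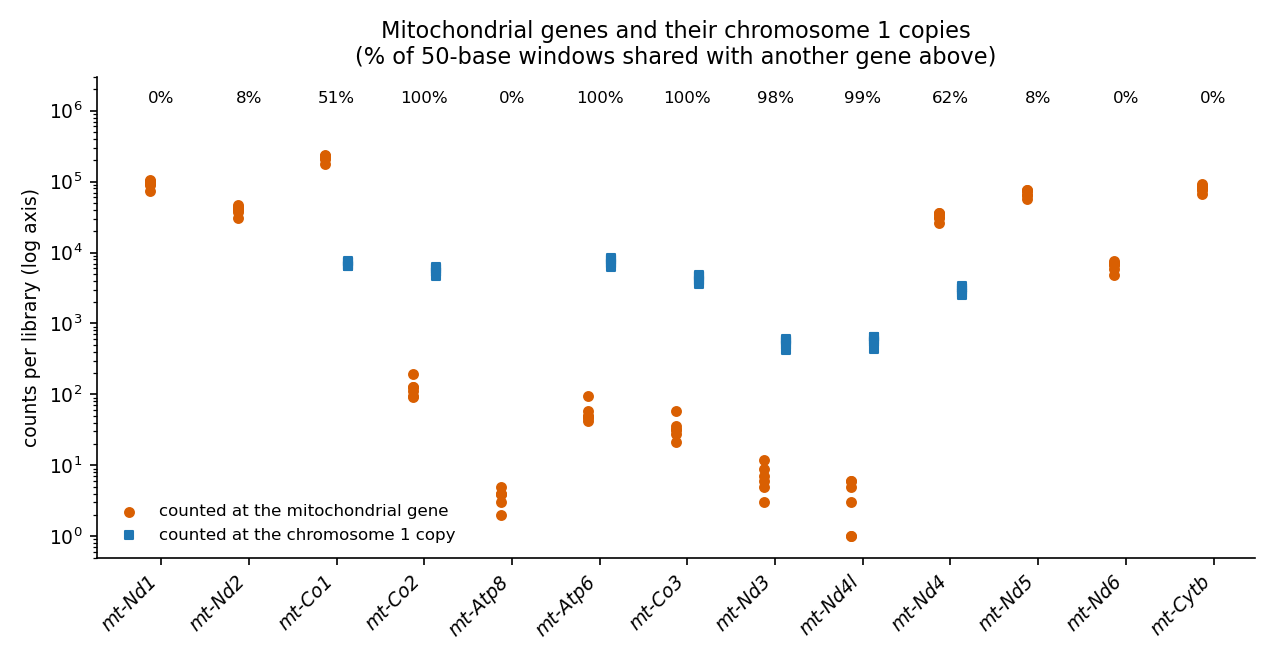
Counts per library (log axis) at each of the 13 mitochondrial protein genes (circles) and, where one exists, at the chromosome 1 copy (squares), with the share of 50-base windows found in another gene printed above. The 5 genes with the highest shares hold 1 to 191 counts per library, below their copies at 425 to 8290.

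Before the analog was added, respiratory mRNAs were abundant and unequal. Levels are compared between genes as CPM per kb of the principal transcript. The 81 nuclear subunits that could be tested had a median of 78.2 CPM per kb at 0 h. By complex the medians per length were 52.0 for I, 71.0 for II, 116 for III, 150 for IV and 138 for V. The assembly and accessory factors were far lower, with a median of 10.3 CPM per kb. Atp5b, the catalytic beta subunit of the ATP synthase, had the highest level per length, 829 CPM per kb, followed by Atp5a1, the alpha subunit, at 404. The highest of the other complexes were Cox4i1 at 314, Uqcrh at 177, Ndufa7 at 148 and Sdha at 93.6 CPM per kb. Most of the 7 mitochondrial genes that carry results were higher still, with mt-Co1 at 7067, mt-Nd1 at 5099, mt-Cytb at 3661, mt-Nd2 at 2051, mt-Nd5 at 1843 and mt-Nd4 at 1199 CPM per kb. mt-Nd6, at 677 CPM per kb, was below Atp5b. Of the windows of mt-Nd4 62.2%, and of mt-Co1 51.1%, occur in other annotated genes, so reads lost there would make their values too low. mt-Nd6 is the only one of the 13 on the minus strand of the annotated mitochondrial genome.

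Where complex IV and complex V have paralogs, the ubiquitous form led in these cells. Cox4i1 stood at 236 and 232 CPM at 0 h and Cox4i2, the form induced in lung and by low oxygen, at 0.828 and 1.25 CPM. Cox6a1 was at 120 and 126 CPM, and Cox6a2, the heart and muscle form, at 0.311 and 0.0926 CPM. Cox7a2 was at 93.0 and 90.9 CPM, and Cox7a1, another heart and muscle form, at 4.71 and 5.56 CPM. Cox8a was at 89.8 and 94.6 CPM, while Cox8b had no count in any library and Cox8c had 1 count in each of 2 libraries. A count of 0 allows up to 0.137 to 0.183 CPM per library. Cox7b was at 96.4 and 92.8 CPM against 0.259 and 0.232 CPM for the testis form Cox7b2. The testis form Cox6b2 was an exception among these, at 37.9 and 41.7 CPM beside 128 and 131 CPM for Cox6b1. Ndufa4l2, which hypoxia induces, was at 8.70 and 9.45 CPM beside 108 and 113 CPM for Ndufa4. Among the genes for subunit c of the ATP synthase, whose mature proteins are the same, Atp5g3 was at 236 and 232 CPM, Atp5g1 at 66.3 and 73.2 CPM and Atp5g2 at 63.7 and 68.3 CPM, with 66.0% of Atp5g1 windows and 100% of Atp5g2 windows also found in other annotated genes.

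**Figure D2:**
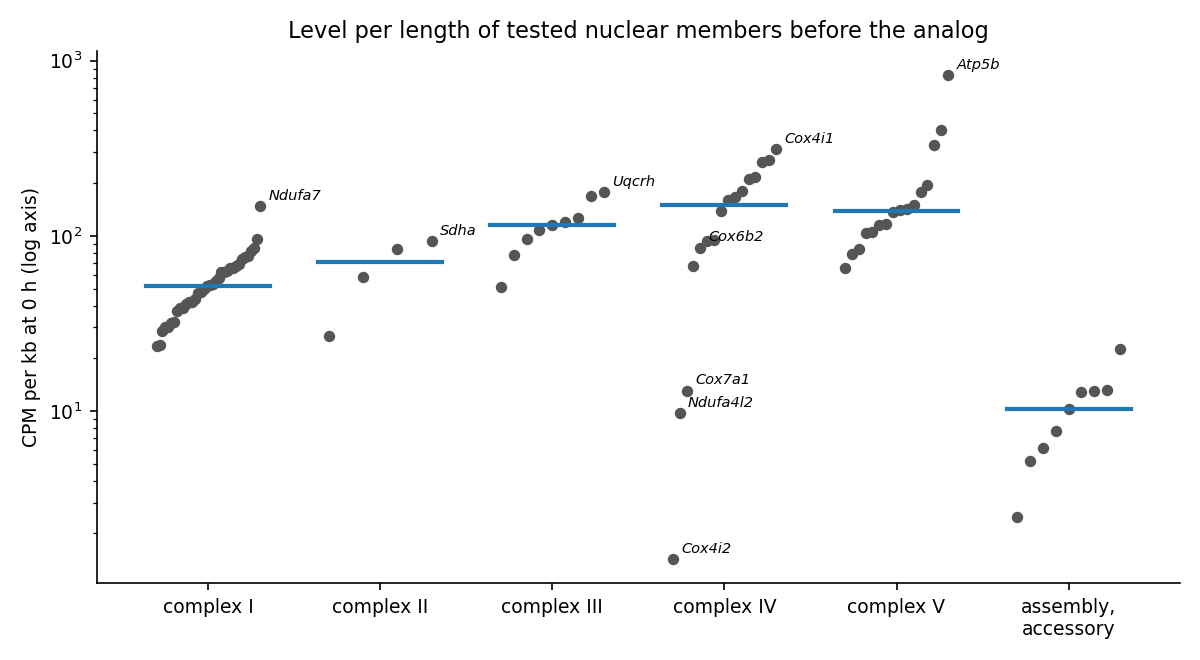
Level per length (CPM per kb of the principal transcript, mean of the 2 libraries at 0 h, log axis) of each tested nuclear member, by complex, with medians as lines. Atp5b leads at 829 CPM per kb, the complex I median is 52.0, and Cox4i2, at 1.43, is the lowest tested subunit.

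After 3 h of the analog, respiratory genes were near their starting levels. No member was called changed by edgeR's quasi-likelihood test at an adjusted p under 0.05 over all 15748 genes tested, where 0.140% of all genes were. DESeq2 and limma voom called 0 as well. At an unadjusted p under 0.05 there were 8 of 100 tested members in edgeR and 3 in DESeq2, where 10.7% of all genes passed in edgeR. The median log2 fold change was -0.016 over 90 nuclear members and -0.037 over the 7 well-counted mitochondrial ones. Over all 10 tested mitochondrial members it was -0.053, and -0.016 with each summed with its chromosome 1 copy. For 90 of the 100 the 95% interval lay within a 1.25-fold change either way. Of 81 nuclear subunits 22 had both 3 h libraries below both 0 h libraries and 7 had them above, where 21.8% and 20.5% of all genes did. Ndufs4, which becomes one of the clearest falls at 6 h, was at 54.1 and 55.4 CPM at 0 h and at 54.6 and 53.7 CPM at 3 h. Cox7c was at 85.1 and 87.8 CPM and then at 85.4 and 88.2 CPM. Both 3 h libraries were thus within or near the 0 h range for these genes.

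The smallest unadjusted p-values at 3 h were those of mt-Nd5 and mt-Nd2, and neither gene passed the adjusted test. mt-Nd2 was at 2093 and 2165 CPM at 0 h and 1987 and 1995 CPM at 3 h, a log2 fold change of -0.097 (adjusted p = 0.284 in edgeR). mt-Nd5 went the other way, from 3308 and 3414 CPM to 3575 and 3547 CPM, with 0.083 (adjusted p = 0.258 in edgeR). For both genes the groups did not overlap. Some nuclear members had larger fitted changes with wider errors, among them Ndufa5 (log2 fold change -0.20, SE 0.073), Uqcr11 (-0.14, SE 0.052) and Cox5b (-0.13, SE 0.047), and none of these was called. The mean feeder marker level was lowest in the 3 h libraries, and with that level as a covariate 4 members were called lower at 3 h (mt-Nd1, mt-Nd2, mt-Co1 and mt-Cytb). The part of feeder RNA in these values was not tested otherwise.

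By 6 h few members passed the test, and most nuclear subunits had a fitted change slightly below 0. Of the 100 tested members 10 were called, 3 higher and 7 lower, beside 22.3% of all genes (10.0% higher and 12.3% lower). At an unadjusted p under 0.05 there were 24, where 34.6% of all genes passed. With library totals in place of scaling factors the members split into 4 higher and 4 lower, and leaving out the second 0 h library or either 3 h library left 6 calls. The comparisons of 3 h and 6 h share the 0 h libraries. Of the 81 tested nuclear subunits 0 were higher and 5 lower, and the fitted change was below 0 in 69, with a median log2 fold change of -0.070. Without the second 0 h or the first 6 h library 2 of them were lower, without either 3 h library 3, and the median stayed below 0 in all 18 alternative settings, at -0.092 to -0.034. The median of all genes was 0.0019, and for all 3684 genes whose mean level lay in the middle range of the nuclear members it was -0.022, with 29.1% of those called. In 46 of the 81 both 6 h libraries were below both 0 h libraries, where 29.9% of all genes were, and in 4 both were above, where 29.6% were. The changes were small, with 76 of the 81 intervals inside a 1.25-fold change. The ES cell markers moved in both directions over the same interval, with 3 of 12 called higher and 5 lower at 6 h against 0 h. Their median log2 fold change was -0.054, with 8 of the 12 fitted below 0. Their part in the subunit values was not tested.

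**Figure D3:**
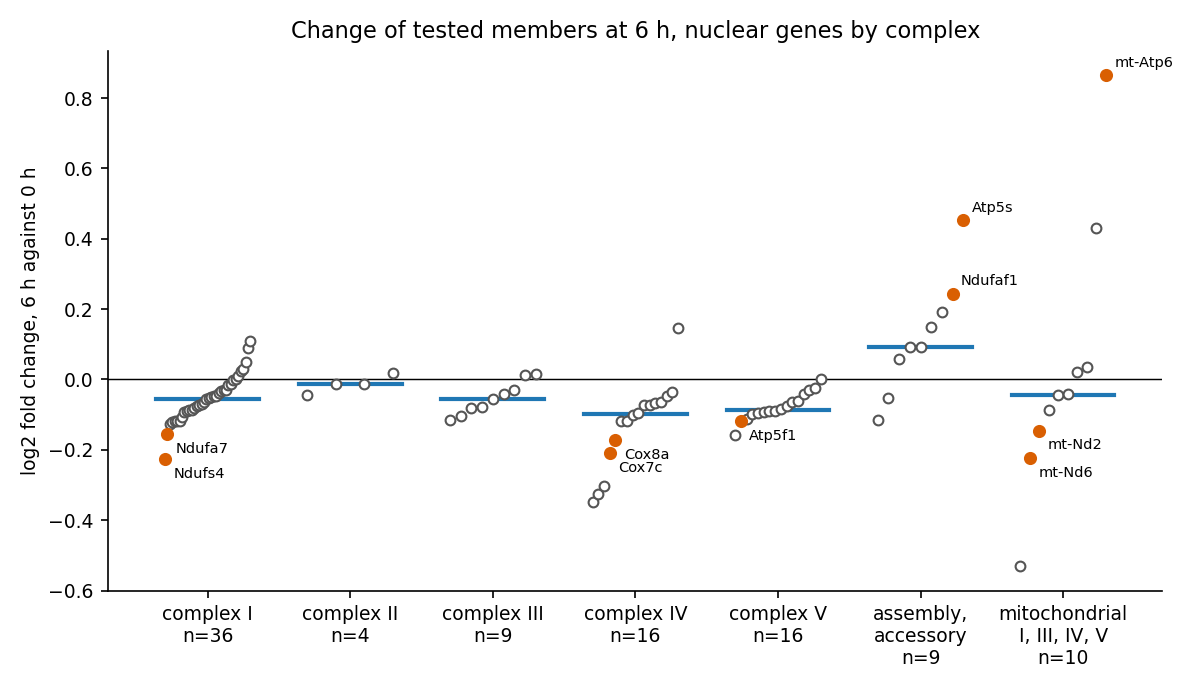
Log2 fold change at 6 h against 0 h for each of the 100 tested members, with nuclear genes by complex and the mitochondrial genes together. Filled points passed an adjusted p of 0.05 in edgeR, open points did not, and lines are medians, which run from -0.014 in complex II to -0.097 in complex IV and are at 0.093 for the assembly and accessory factors.

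Complex by complex, the sums of nuclear subunit levels in CPM with scaling factors were all lower at 6 h, by different amounts. For complex IV the 20 nuclear genes summed to 1471 and 1486 CPM at 0 h, 1474 and 1444 CPM at 3 h, and 1379 and 1407 CPM at 6 h, a change of -5.77%. Complex V went from 4043 and 4087 CPM to 3885 and 3904 CPM, or -4.19%. Complex I went from 1933 and 1960 CPM to 1894 and 1875 CPM, or -3.16%, and complex III from 895 and 920 CPM to 883 and 877 CPM, or -3.04%. In these 4 complexes the 6 h libraries lay below the 0 h libraries with scaling factors. Complex II was at 520 and 534 CPM and then at 511 and 524 CPM, a change of -1.76%, and its groups overlapped. The scaling factors were 0.995 and 0.988 at 0 h and 1.015 and 1.018 at 6 h. With library totals in their place complex II was not lower, and the groups of complex III overlapped. All 86 nuclear subunits together summed to 8862 and 8986 CPM at 0 h, 8878 and 8850 CPM at 3 h and 8553 and 8587 CPM at 6 h, a change of -3.97%, which was -1.59% with library totals in place of scaling factors. With 2 libraries against 2 an exact permutation test cannot give a two-sided p below 0.333, and no p is given for these sums.

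**Figure D4:**
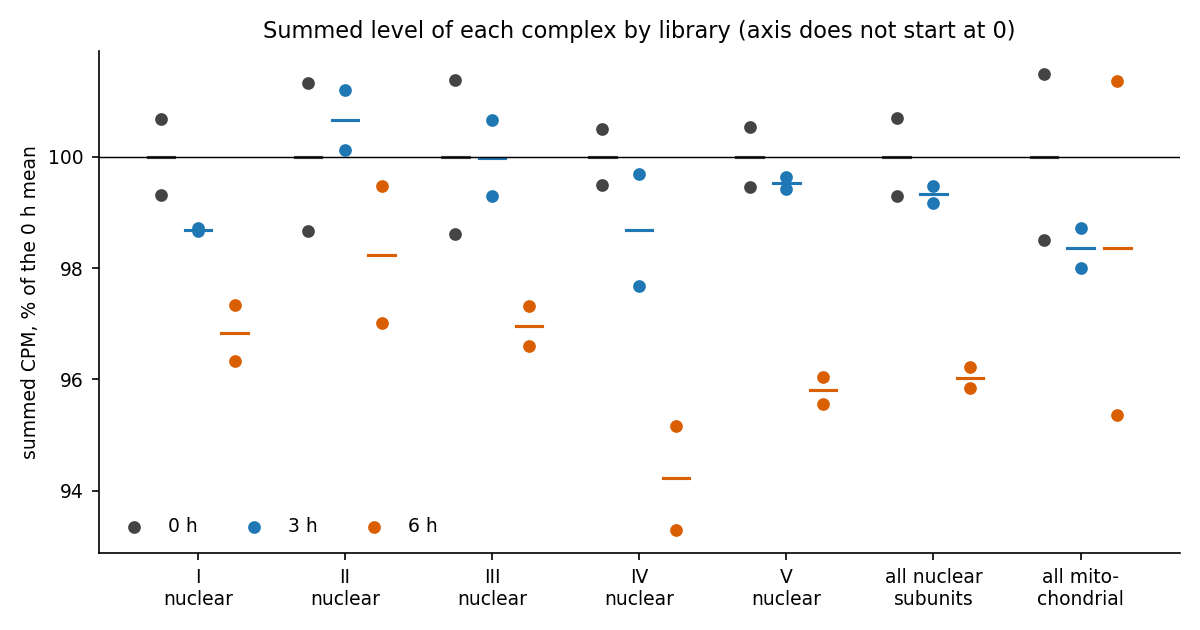
Summed CPM of the nuclear subunits of each complex, of all nuclear subunits and of all mitochondrial members in each library, as a percent of the 0 h mean (lines are group means, and the axis does not start at 0). With the scaling factors used, the 6 h libraries lie below both 0 h libraries in complexes I, III, IV and V and in the nuclear sum. They overlap them in complex II and in the mitochondrial sum.

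In complex I, 41 subunits were tested, 36 of them nuclear. Of the 41, 4 were called lower (9.76%), where 12.3% of all genes were, and of the 36 nuclear ones 2 were (5.56%). Ndufs4, an accessory subunit of the NADH-oxidizing module whose loss causes Leigh syndrome in humans (chr13:114287795-114388258, minus strand), was at 54.1 and 55.4 CPM at 0 h and 46.1 and 47.5 CPM at 6 h. Both 6 h libraries were below the 4 earlier ones, and the log2 fold change was -0.23 (SE 0.050, adjusted p = 0.0032 in edgeR). Ndufa7, another accessory subunit, was at 74.4 and 82.1 CPM, then 77.4 and 76.1 CPM at 3 h, and 71.8 and 68.9 CPM at 6 h. Its log2 fold change at 6 h was -0.16 (SE 0.051, adjusted p = 0.038 in edgeR), and this call was kept in 1 of 6 fits that each left out 1 library, with an adjusted p up to 0.39. A pair of core subunits of the arm that oxidizes NADH and passes electrons to coenzyme Q, chosen as examples, were not called: Ndufs1 was at 137 and 132 CPM and then at 136 and 133 CPM, and Ndufv1 at 114 and 105 CPM and then at 106 and 101 CPM. Ndufv3, which moved most upward among nuclear complex I genes, had a log2 fold change of 0.11 (adjusted p = 0.17 in edgeR).

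The other falls in complex I were of genes in mitochondrial DNA. mt-Nd6 (chrM:13552-14070, minus strand), a membrane-arm subunit, was at 348 and 355 CPM at 0 h, 335 and 318 CPM at 3 h and 288 and 313 CPM at 6 h. The 3 groups did not overlap, and the log2 fold change at 6 h was -0.22 (SE 0.041, adjusted p = 0.00079 in edgeR). The strand setting of the counting is not stated, so these polyA counts may include RNA of the opposite strand, where mt-Nd5 lies and overlaps mt-Nd6 at its end. mt-Nd2 (chrM:3914-4951, plus strand), another membrane-arm subunit, was at 2093 and 2165 CPM at 0 h and 1862 and 1989 CPM at 6 h, a log2 fold change of -0.15 (SE 0.032, adjusted p = 0.0036 in edgeR). The 6 h libraries differed from each other by more than the 0 h libraries did, and the second lay inside the 3 h range. mt-Nd1 was at 4835 and 4924 CPM and then at 4404 and 4788 CPM (log2 fold change -0.086, adjusted p = 0.069 in edgeR). mt-Nd4, at 1620 and 1684 CPM and then 1584 and 1621 CPM, and mt-Nd5, at 3308 and 3414 CPM and then 3468 and 3428 CPM, were not called, and mt-Nd5 lay above its 0 h values in both libraries.

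In complex II none of the 4 subunits was called at 6 h. Sdha, the flavoprotein, was at 270 and 273 CPM and then at 260 and 267 CPM. Sdhb, the iron-sulfur subunit, stood at 66.7 and 66.2 CPM and then at 66.6 and 68.1 CPM. The membrane anchors Sdhc and Sdhd had log2 fold changes of -0.014 and -0.014. In complex III none of 10 was called at 6 h. Cyc1, cytochrome c1, was at 145 and 145 CPM at 0 h, 151 and 148 CPM at 3 h and 138 and 137 CPM at 6 h. It therefore lay lowest at 6 h, with a log2 fold change of -0.079 against 0 h (adjusted p = 0.14 in edgeR) and of -0.12 against 3 h (SE 0.037, adjusted p = 0.027 in edgeR). Uqcrh, the hinge protein, was at 92.7 and 101 CPM and then at 96.9 and 99.1 CPM, and the 2 groups overlapped. mt-Cytb, cytochrome b, was at 4132 and 4244 CPM and then at 4001 and 4137 CPM, with overlap (log2 fold change -0.042, adjusted p = 0.30 in edgeR).

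Complex IV held the lowest median of the nuclear subunits, -0.097 over 16 tested, with 15 fitted below 0. Of the 16, 2 were called, both lower (12.5%), where 12.3% of all genes were called lower. Cox7c (chr13:86044816-86046904, minus strand), a small nuclear subunit, was at 85.1 and 87.8 CPM at 0 h, 85.4 and 88.2 CPM at 3 h and 74.8 and 74.6 CPM at 6 h. The 6 h libraries were nearly equal and below the other 4, and the log2 fold change was -0.21 (SE 0.044, adjusted p = 0.0023 in edgeR). Of its windows 53.0% occur in other annotated genes. The copies Gm10012 and Gm12338 held at most 0.142 CPM in any library, but reads dropped for several matches would be missing at both places. Cox8a was at 89.8 and 94.6 CPM, then 90.7 and 80.9 CPM at 3 h, and 80.1 and 83.5 CPM at 6 h. The 6 h values lay below the 0 h values but around the lower 3 h library, and the log2 fold change was -0.17 (SE 0.053, adjusted p = 0.027 in edgeR, up to 0.16 across the alternatives). Cox6b2 was the only nuclear complex IV gene fitted above 0, at 0.15 (adjusted p = 0.089 in edgeR). Ndufa4l2 and Cox7a1 had log2 fold changes of -0.30 and -0.33 with wide errors (SE 0.13 and 0.16), and neither was called. mt-Co1, the catalytic subunit, was at 10729 and 11107 CPM and then at 10593 and 11573 CPM (log2 fold change 0.022, adjusted p = 0.70 in edgeR), so the 6 h libraries lay on either side of the 0 h pair.

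In complex V 16 nuclear genes were tested and 15 of them were fitted below 0. Only 1 was called, lower (6.25%), where 12.3% of all genes were called lower. Atp5f1, subunit b of the peripheral stalk, was at 221 and 229 CPM at 0 h, 218 and 223 CPM at 3 h, and 208 and 207 CPM at 6 h. The 6 h values were below all others, and the log2 fold change was -0.12 (SE 0.036, adjusted p = 0.025 in edgeR), kept in 1 of 6 fits that left out a library. Atp5b, for all its abundance, was at 1576 and 1601 CPM and then at 1528 and 1513 CPM (log2 fold change -0.063, adjusted p = 0.11 in edgeR). In 14 of the 16 both 6 h libraries were below both 0 h libraries, where 29.9% of all genes were. mt-Atp6 passed the test upward with a log2 fold change of 0.86 (adjusted p = 0.031 in edgeR), but this rests on 94 and 50 counts at 6 h against 42 and 50 at 0 h. Summed with its copy Gm10925, which held 7183 and 8290 counts at 0 h and 6252 and 6978 at 6 h, the log2 fold change was -0.0025 (adjusted p = 0.97 in edgeR).

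The assembly and accessory factors had a median log2 fold change of 0.093 at 6 h, with 7 of the 9 fitted above 0. Of the 9, 2 (22.2%) were called, both higher, beside 22.3% of all genes in either direction, and their difference from the subunits was not tested. Ndufaf1, which helps to build the membrane arm of complex I, was at 18.9 and 19.4 CPM at 0 h and 20.8 and 24.6 CPM at 6 h, with the first 6 h library within the 3 h range of 19.0 to 20.8 CPM and the second above all others. The log2 fold change was 0.24 (SE 0.084, adjusted p = 0.047 in edgeR). Atp5s, also known as coupling factor B, was at 3.94 and 3.43 CPM and then 5.36 and 4.72 CPM (log2 fold change 0.45, SE 0.16, adjusted p = 0.050 in edgeR, on 74 to 92 counts per library). The Ndufaf1 call was kept in 1 of 6 fits that left out a library and the Atp5s call in 0 of 6, with adjusted p up to 0.46 and 0.28. Ndufaf7, known in human cells as a methyltransferase that acts in complex I assembly, was at 21.7 and 23.1 CPM at 0 h, 21.9 and 21.1 CPM at 3 h and 25.1 and 24.7 CPM at 6 h, and rose between 3 and 6 h by 0.21 on the log2 scale (SE 0.068, adjusted p = 0.033 in edgeR).

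**Figure D5:**
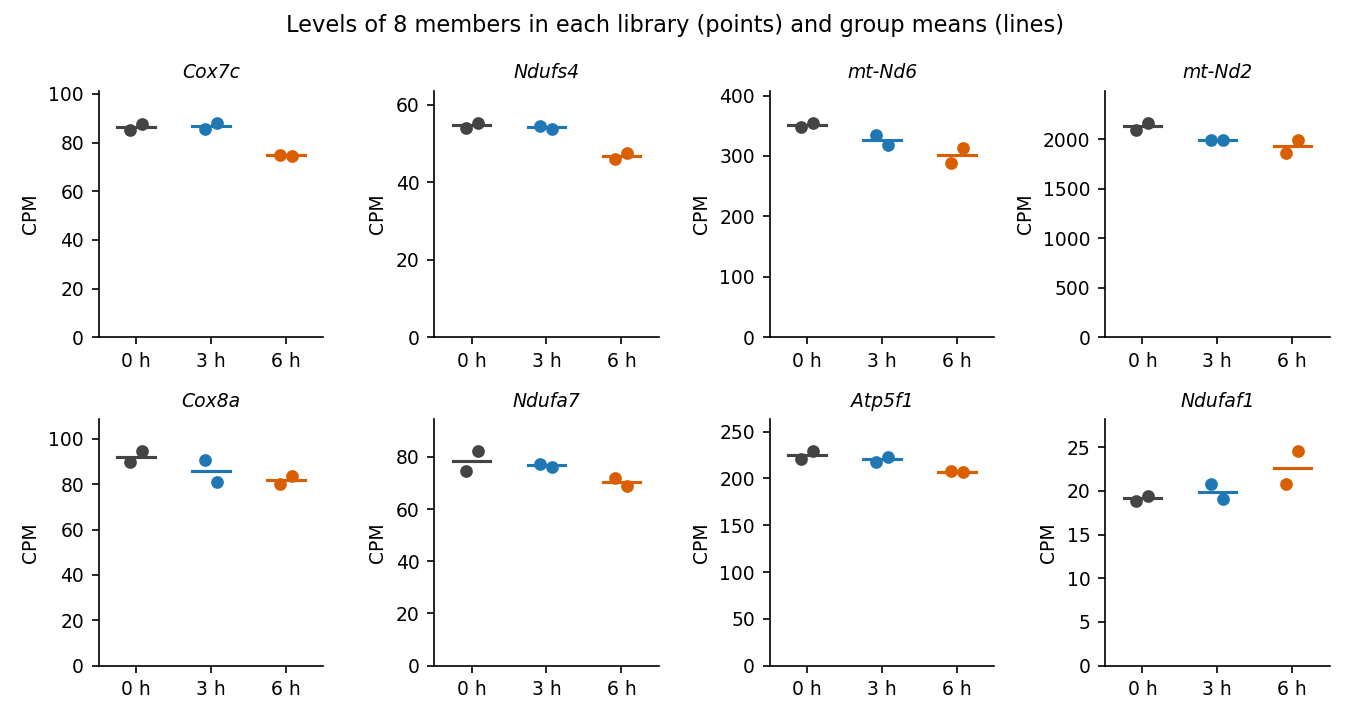
Level in CPM of 8 members in each of the 6 libraries (points) with group means (lines), each axis starting at 0. Cox7c, Ndufs4, mt-Nd6 and mt-Nd2 are lower in both 6 h libraries than in both 0 h libraries and were called in every setting tried, while Cox8a, Ndufa7, Atp5f1 and Ndufaf1 lost the call in some.

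Between 3 and 6 h 8 of the 100 members were called, 1 higher and 7 lower, where 21.7% of all genes were called (9.89% higher and 11.8% lower). Of the 81 nuclear subunits 33 had both 6 h libraries below both 3 h libraries and 7 had them above, where 30.0% and 30.8% of all genes did. With library totals in place of scaling factors the split was 3 higher and 2 lower, and with the feeder marker level as a covariate 5 higher and 2 lower. In this comparison 8 of the 26 feeder markers were called higher and 0 lower, and 1 was fitted below 0. Both this comparison and the one with 0 h use the same 6 h libraries, so they are not independent. Ndufs4 (log2 fold change -0.21, adjusted p = 0.0060) and Cox7c (-0.22, adjusted p = 0.0022) fell here as well in edgeR. Atp5j, coupling factor 6 of the ATP synthase stalk, was at 118 and 120 CPM at 3 h and 106 and 111 CPM at 6 h (-0.13, adjusted p = 0.040 in edgeR). Cox6c was at 138 and 135 CPM and then at 126 and 126 CPM (-0.12, adjusted p = 0.037 in edgeR), and Cox5a at 179 and 176 CPM and then at 163 and 165 CPM (-0.11, adjusted p = 0.039 in edgeR). For each of these 3 genes the 6 h libraries were below both 3 h libraries. mt-Nd6 passed narrowly (-0.12, adjusted p = 0.049 in edgeR). All 16 tested nuclear genes of complex V were fitted below 0, with a median of -0.074. Leaving out the first or the second 3 h library left 1 or 2 calls, and leaving out the first 6 h library left 4.

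The nuclear and mitochondrial genomes are compared next. The nuclear sum was lower at 6 h in both libraries. The mitochondrial sum rests on the 7 well-counted genes, which made up nearly all of it. The 13 mitochondrial genes summed to 27078 and 27902 CPM at 0 h, 27139 and 26940 CPM at 3 h, and 26214 and 27863 CPM at 6 h, so the 6 h libraries spanned almost the whole 0 h range and the mean changed by -1.64%. That direction was not stable: the change was 0.802% with library totals, 1.36% without the first 6 h library and -4.64% without the second. Within the mitochondrial genome the complex I genes were lower, from 12204 and 12542 CPM to 11607 and 12139 CPM, or -4.05%, while the complex IV genes, nearly all of it mt-Co1, went from 10739 and 11113 CPM to 10600 and 11585 CPM. The median log2 fold change of the 7 well-counted mitochondrial genes was -0.044, beside -0.070 for nuclear subunits. Of the 7, 2 were called lower (28.6%), beside 6.17% of the nuclear subunits and 12.3% of all genes. The first 6 h library held less mitochondrial RNA and more feeder marker RNA (24320 CPM) than the second (21903 CPM), and whether these are linked was not tested. The difference between the genomes was not tested, since members are not replicates.

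How members vary among themselves was set beside features that played no part in choosing them. Nuclear subunit transcripts are short, with a median of 758 bases and a median 3′ untranslated region of 156 bases, counting the stop codon, against 2881 and 907.5 bases over 13712 tested protein-coding genes. The 90 nuclear members taken next also include the 9 assembly and accessory factors. Those 9 had a median transcript of 1451 bases and a median 6 h log2 fold change of 0.093, beside -0.070 for nuclear subunits. Across the 90 the Spearman correlation of the 6 h change with transcript length was 0.29, with third-position GC content -0.16, and with mean level -0.079. Over all coding genes the same values were 0.024, 0.077 and -0.25. The correlation with the share of windows found in other genes was -0.34 over the 90. These values are across genes that share the same libraries, and are descriptions without a test.

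Promoters were examined because nuclear respiratory genes are classic targets of NRF1, of the ETS-family factor GABP and of YY1. RefSeq windows (GRCm38.p6) reaching 250 bases before to 50 after the start were found for 74 of the 90 tested nuclear members. Those not matched included Atp5a1, Atp5mpl, Cox4i1, Cox4i2, Cox6c, Cyc1, Ndufa2, Ndufa4l2, Ndufaf6, Ndufb9, Ndufs1, Sdhc, Uqcrb, Uqcrc2 and Uqcrq. On either strand, the NRF1 motif (GCGC, then A and any base, then GCGC) occurred in 18 of the 74 (24.3%) and in 4.78% of all 27025 promoter windows, which include non-coding genes. The windows of all genes were not matched to those of members in expression or GC content. The ETS motif CCGGAAG occurred in 17 (23.0%) and in 9.12% of all. The YY1 motif AANATGGC occurred in 17 (23.0%) and in 6.23% of all, and in 9 of those 17 it overlapped an annotated start codon. As a comparison motif, CCAAT occurred in 44.6% and 37.9%. No window held all 3 respiratory motifs, and 29 of the 74 held none of them.

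The 100 bases before the start are printed for Cox7c and Ndufs4, the nuclear members called at 6 h in every setting, and for Sdha, which was not called and has the motif 3 times. Capitals mark NRF1 motif matches. The stretches are chr13:86046796-86046895 for Cox7c, chr13:114388095-114388194 for Ndufs4 and chr13:74350241-74350340 for Sdha, all GRCm38.p6 and read on the minus strand. Neither Cox7c nor Ndufs4 has a match in the printed stretch. The one match in the whole Ndufs4 window is of YY1 and lies after the start, while the Cox7c window has none of the 3 motifs.
Cox7c: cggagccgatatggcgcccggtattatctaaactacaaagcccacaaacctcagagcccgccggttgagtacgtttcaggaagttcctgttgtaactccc
Ndufs4: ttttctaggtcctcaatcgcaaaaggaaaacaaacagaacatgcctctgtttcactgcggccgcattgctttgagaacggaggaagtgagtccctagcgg
Sdha: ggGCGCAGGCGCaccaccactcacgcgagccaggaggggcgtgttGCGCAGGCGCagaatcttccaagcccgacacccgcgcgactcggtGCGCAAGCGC

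The transcripts of regulators were examined as well. Of 9 tested genes on a list of regulators of mitochondrial biogenesis, 5 were lower at 6 h against 0 h and 0 higher, where 12.3% and 10.0% of all genes were, with a median log2 fold change of -0.16, and 5 to 7 were lower under the 18 alternative settings. The list was chosen with earlier results of these data known, so its share beside that of all genes is a description only. Pprc1, a coactivator of the PGC-1 family, was at 310 and 320 CPM at 0 h, 311 and 308 CPM at 3 h and 249 and 245 CPM at 6 h. Both 6 h values were below all others, and the log2 fold change was -0.35 (SE 0.034, adjusted p = 1.8e-06 in edgeR). Gabpb2, a beta subunit of GABP, was at 141 and 147 CPM and then at 107 and 107 CPM (-0.43, SE 0.040, adjusted p = 1.1e-06 in edgeR). Its relative Gabpb1 was at 47.6 and 53.9 CPM and then at 41.1 and 40.7 CPM (-0.31, SE 0.063, adjusted p = 0.0019 in edgeR). Yy1 fell by 0.23 and Hcfc1, a cofactor of several promoter-bound factors, fell by 0.16 on the log2 scale. Nrf1 itself was at 58.5 and 59.1 CPM and then at 55.5 and 54.0 CPM and did not pass (adjusted p = 0.13 in edgeR).

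Other mitochondrial gene lists were mixed. Of 30 tested factors for mitochondrial DNA and RNA 3 were higher and 5 lower at 6 h, or 26.7% called beside 22.3% of all genes. Fastkd1, an RNA-binding protein of the mitochondrial matrix, was at 25.8 and 25.9 CPM at 0 h and 34.3 and 34.2 CPM at 6 h (log2 fold change 0.41, SE 0.060, adjusted p = 0.00013 in edgeR), and Tefm, the mitochondrial transcription elongation factor, at 10.6 and 11.9 CPM and then at 15.9 and 15.9 CPM (0.49, SE 0.091, adjusted p = 0.00095 in edgeR). Both rose. Twnk, the mitochondrial DNA helicase, was at 44.1 and 40.2 CPM and then at 35.5 and 36.1 CPM (-0.24, SE 0.058, adjusted p = 0.0078 in edgeR), and Fastkd3 fell by 0.33 and Tbrg4 (FASTKD4) by 0.20 on the log2 scale. Of 77 mitochondrial ribosomal protein genes 2 were higher and 2 lower (5.19% called), and of 26 genes of the TCA cycle and pyruvate dehydrogenase (15.4% called) 2 were higher (Ogdh, 0.18, and Pdk2, 0.62) and 2 lower (Pdp2, -0.28, and Pdha1, -0.13). Of the assembly factors outside the member set, 1 of 7 for complex I was lower (Timmdc1, -0.29), 0 of 4 for complex II and 0 of 6 for complex III were called, 1 of 21 for complex IV was higher (Coa4, 0.58) and 1 lower (Coa7, -0.26), and 1 of 4 for complex V was higher (Tmem70, 0.23). None of 13 genes for cytochrome c and coenzyme Q synthesis was called at 6 h against 0 h. Of all these lists 0 genes were called at 3 h, where 0.140% of all genes were.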

How the data were processed

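PolyA libraries of 3 times (2 each) were analysed from 1 deposited table of raw counts, in which the authors give whole reads for each Ensembl gene. Per the submitters' processing notes, fastp 0.22.0, HISAT2 2.2.1, featureCounts 2.0.3 and build GRCm38 (mm10) were used. The sources used here do not state the annotation release, the strand setting or how reads matching several places were counted. Symbols, positions and transcripts came from GENCODE M21 of the same build (55227 IDs matched), and promoters from RefSeq.

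From the counts, edgeR 4.0.16 (R 4.3.3, limma 3.58.1) was run in 1 fit of all 6 libraries: filterByExpr with a minimum of 10 counts (15748 genes, 99.9% of counts), TMM factors, adjusted-deviance quasi-likelihood dispersions, 3 residual and 13.7 prior degrees of freedom, Benjamini-Hochberg adjustment over all genes, two-sided, threshold 0.05. A standard error (SE) is the size of the log2 fold change over the square root of its F statistic. CPM is counts per 1000000 of the TMM-scaled library. The fit was tested on simulated data. Of 108 members 100 passed the filter. Not tested were Cox6a2, Cox7b2, Cox8b, Cox8c, mt-Atp8, mt-Nd3, mt-Nd4l and a second gene named Atp5o with 0 counts.

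The 2 libraries of each time differed beyond counting noise, with a chi-square of 4.46, 2.05 and 6.84 for each degree of freedom at 0, 3 and 6 h. Nothing in the labels says that they are separate cultures, and the p-values then cover only their spread, which may be technical. Values per library are given for called members (up to 12 per comparison), all mitochondrial members, the highest member per complex, the 3 largest rises and falls at 6 h, isoform families and up to 5 called genes per list. Members and lists were chosen with earlier results of these data known. Genes named outside this rule (Atp5a1, Cox5b, Ndufa5, Ndufs1, Ndufv1, Ndufv3, Sdhb, Sdhc, Sdhd, Uqcr11, Nrf1) were chosen after their values were seen. Some items are not reported here. Alternatives were other size factors, no filter, DESeq2 1.42.0, limma voom, a replicate block, a feeder marker covariate, a GC offset, 4 libraries only, and omitting 1 library at a time. Legacy dispersions and counts summed with the chromosome 1 copies were chosen after seeing the data.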

Additional observations from a re-analysis of the deposited data

Results flagged for a closer look

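The change from 0 h was larger or smaller at 6 h than at 3 h, by edgeR's test of that difference, for 8 members. The difference on the log2 scale was -0.22 for Cox7c, -0.21 for Ndufs4, -0.12 for Cyc1, 0.21 for Ndufaf7, -0.12 for Cox6c, -0.11 for Cox5a, -0.13 for Atp5j and -0.12 for mt-Nd6. This is the same contrast as 6 h against 3 h, and its background share is given with that comparison.

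Pseudogene copies of mitochondrial genes on chromosome 1 are not members, yet they hold reads in every library. The totals over the 6 libraries were 44740 counts at Gm10925, 41729 at Gm29216, 33492 at Gm28661, 25829 at Gm28437, 17713 at Gm28439, 3422 at Gm10222 and 3205 at Gm28438. The 0 h libraries hold them as well, at 540 to 8290 counts per copy and library. Gm29216, the copy of part of mt-Co1, was called higher at 6 h against 0 h (log2 fold change 0.15, SE 0.039, adjusted p = 0.0093 in edgeR), and the other 6 copies were not called at any time.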

How the results depend on the processing

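The labels do not say whether libraries of the same number are paired. Deviations from the group means correlated at 0.037, 0.040 and -0.021 across genes, which does not exclude a batch shared by number. Summed feeder markers were higher in the first library at each time. They were at 24566 against 22532 CPM at 0 h, 21831 against 21410 CPM at 3 h and 24320 against 21903 CPM at 6 h. The replicate block called 242 genes at 3 h against 22, and among members 1 at 3 h, 17 at 6 h against 10 and 11 between 3 and 6 h against 8. Over all genes, no filter gave 0, 2029 and 1725 calls, DESeq2 12, 1697 and 1438, in the order 3 h, 6 h and 6 h against 3 h, where the reported counts are 22, 3515 and 3414. The 4-library fit gave 74 at 3 h, and the feeder covariate 1740 for 6 h against 3 h. Leaving out 1 library gave 4 to 249 calls at 3 h and 1514 to 3707 for 6 h against 3 h.

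Among members at 6 h against 0 h, no filter and DESeq2 each gave 4 calls, the 4-library fit 6, the GC offset 18 and the feeder covariate 23, and leaving out 1 library 6 to 9. At 3 h the feeder covariate gave 4, and leaving out 1 library 0 to 2. For 6 h against 3 h, library totals gave 5, no filter 2, DESeq2 1 and the GC offset 16, and leaving out 1 library 1 to 10. Cox7c, Ndufs4, mt-Nd2 and mt-Nd6 were called at 6 h with any 1 of the 6 libraries removed and in all 12 other settings, with adjusted p up to 0.023, 0.042, 0.048 and 0.026. mt-Atp6 reversed to -0.0025 when summed with its copy.

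The median log2 fold change of nuclear members at 6 h was -0.028 with library totals. For 6 h against 3 h it was 0.0013 with library totals and -0.071 with the GC offset, and that of mitochondrial members was 0.020 with the feeder covariate and from -0.049 to 0.034 without 1 library. With the feeder covariate the mitochondrial median at 3 h was -0.13. The nuclear sum changed by -1.59% at 6 h against 0 h and by -0.930% against 3 h with library totals. The cause of these shifts was not tested. Depth limits members with few counts, such as Cox4i2, mt-Co3, mt-Atp6, mt-Co2, Cox7a1, Ndufaf8, Atp5s and the 8 that were not tested.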
